A study of Mus musculus with 19 samples.

Results

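The 39 interferon-stimulated genes described here were chosen by gene symbol, with no measured value in the rule, but with earlier results of these data known. All 39 were found among the 51707 genes of the annotation used. They were measured in 19 RNA-seq libraries of cells sorted from mouse pancreatic ductal adenocarcinomas, which grew in C57BL/6J mice from transplanted T-LOH KPC organoids, a tumour organoid line. The neratinib mice received the drug, an irreversible inhibitor of the ERBB receptor tyrosine kinases, for 2 weeks, and the vehicle mice received vehicle for the same time. PDPN+ cells, which the labels name cancer-associated fibroblasts, gave 4 neratinib and 4 vehicle libraries, and EpCAM+ cells, named epithelial cells, gave 5 neratinib and 6 vehicle libraries. All groups share the strain, the organoids and the orthotopic site. The age and sex of the mice are not given in the labels. Libraries are named by N (neratinib) or V (vehicle) and the 5-digit number of their label. Equal numbers were taken to mean equal mice, which the labels do not state, and 8 of the 11 mice then gave both populations.

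Interferons are secreted cytokines that bind receptors on the cell surface and activate the kinases JAK1, JAK2 and TYK2. Type I and III interferons assemble a complex that holds STAT2 and IRF9 and binds the interferon-stimulated response element, whereas interferon gamma acts through the gamma-activated site. The genes switched on in this way restrict viruses and intracellular microbes, and in tumours they are known from both cancer cells and stromal cells.

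Reads assigned to genes, in units of 1e6, ranged from 30.3 to 48.1 per PDPN+ library and from 39.4 to 75.4 per EpCAM+ library. Fibroblast markers summed to 17480 to 31323 CPM (counts scaled to a library of 1e6 reads) in PDPN+ libraries and to 15.6 to 194 CPM in EpCAM+ libraries, and epithelial markers to 432 to 1969 CPM in PDPN+ libraries and to 17389 to 25500 CPM in EpCAM+ libraries. Some libraries stood apart from the others on the first principal component of all genes. In PDPN+ cells these were V53175 and V53188, in which 12102 and 11924 genes had at least 10 reads. In EpCAM+ cells these were N53178, V53175 and V53176. Results that rest on these libraries are given with and without them. Where a gene had 0 reads, counting error alone allows 3 reads, or 0.110 CPM in the library with the fewest reads. In sorted bulk RNA, fewer cells of a type and less RNA per cell cannot be told apart.

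As a group, the interferon-stimulated genes were more abundant in PDPN+ than in EpCAM+ cells. Of the 39 members, 26 passed as higher in PDPN+ cells, none passed as lower and 13 did not pass (edgeR quasi-likelihood test over 19626 genes, adjusted p under 0.05). Of all genes tested, 24.3% passed as higher and 25.0% as lower. The median log2 difference of the members was 1.84, against -0.13 for all genes tested. A positive value was found for 35 of 39 members and for 9115 of the 19626 genes. The difference reached 6.32 for Iigp1 (SE 0.71, adjusted p = 7.57e-07), 5.30 for Rsad2 (SE 0.91), 4.99 for Zbp1 (SE 0.38, adjusted p = 5.04e-09) and 4.81 for Gbp2 (SE 0.47), while Irf1, Irf9 and Oasl1 lay at 0.07 (SE 0.50), 0.11 (SE 0.26) and -0.12 (SE 0.44), and each changed sign in at least 1 alternative. Of the members, 17 passed as higher in each of the 19 alternative settings, and 3 (Oas3, Dtx3l and Trim25) passed as lower in at least one. Without the 5 libraries that stood apart 25 members were higher and 1, Trim25, was lower. With the mouse as a block, 20 members were higher and 2 were lower. The block was fitted only on the 8 mice with both populations, without EpCAM+ libraries V53176, V53192 and N53193. Effects of the block and of the smaller set of libraries were not separated. On log2(TPM + 1) with limma 23 were higher and 3 lower. On that scale the median over 14210 genes was -0.66, against -0.12 for the same genes by edgeR, so directions of members near 0 depend on the scaling.

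**Figure D1:**
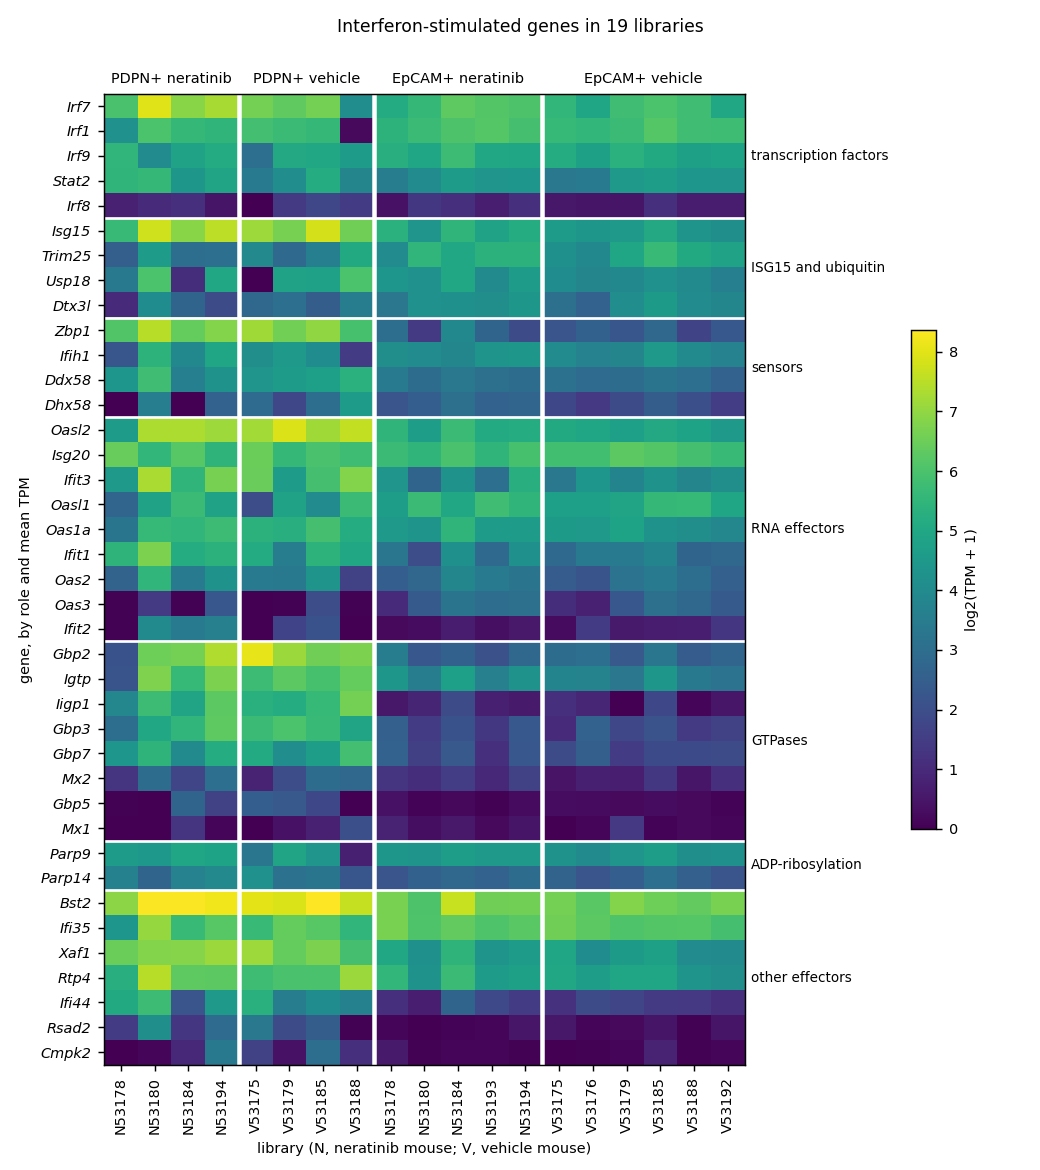
Level of each of the 39 genes as log2(TPM + 1) (colour) in each of the 19 libraries (columns, by population and treatment), with genes in rows by role and mean level. Rows such as Zbp1, Gbp2 and Iigp1 are higher in PDPN+ than in EpCAM+ columns, and single PDPN+ libraries are low for single genes, such as V53188 for Irf1 at 0.150 TPM.

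**Figure D2:**
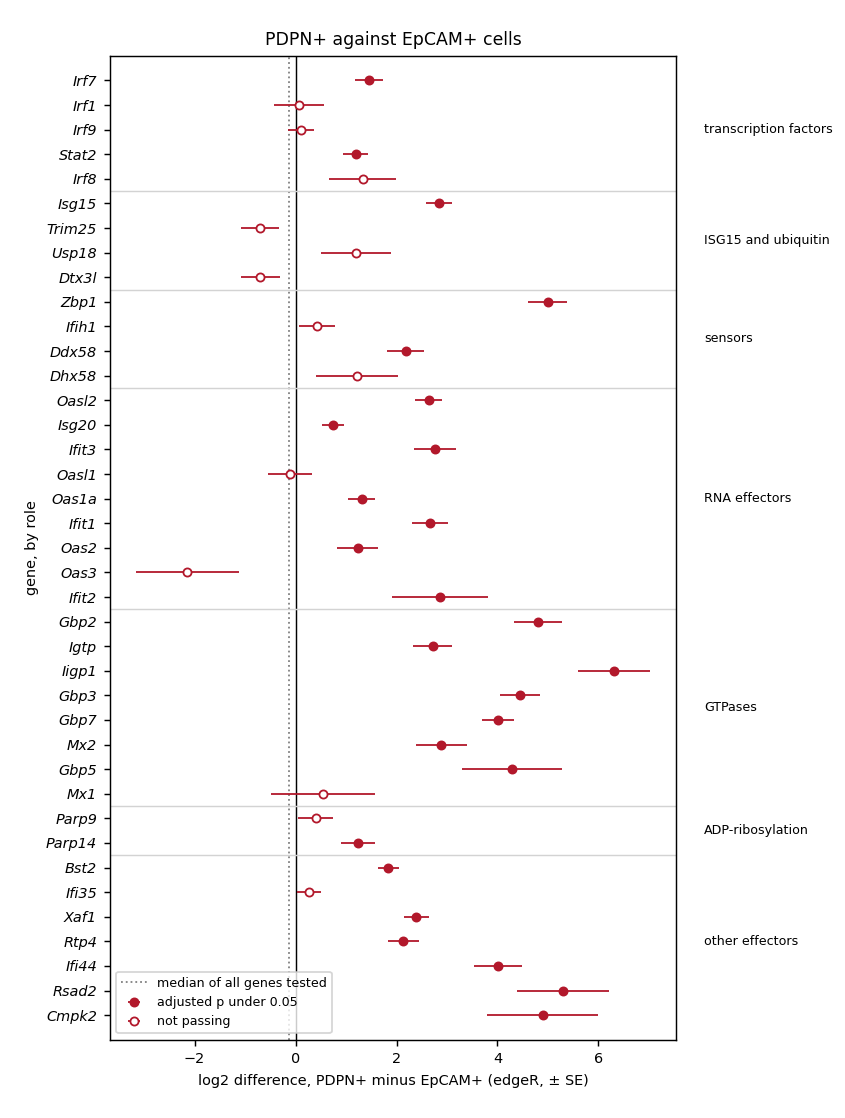
Log2 difference between PDPN+ and EpCAM+ cells with its standard error (horizontal axis) for each of the 39 genes (rows, by role), from edgeR over 19 libraries. Filled points mark the 26 genes that passed, and all of them lie to the right of 0.

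Levels are given as TPM (a share of transcripts, scaled by transcript length), for PDPN+ neratinib libraries in the order N53178, N53180, N53184, N53194 and for PDPN+ vehicle libraries in the order V53175, V53179, V53185, V53188. EpCAM+ libraries are given by their lowest, median and highest value. Mitochondrial transcripts held 12.3 to 32.5% of the TPM in PDPN+ libraries and 4.89 to 6.45% in EpCAM+ libraries. As TPM is a share, this lowers the TPM of other genes more in PDPN+ than in EpCAM+ libraries.

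Among the transcription factors, 2 of 5 passed as higher in PDPN+ cells. Irf7, the factor that amplifies the type I interferon response, had 61.8, 249.6, 117 and 153 TPM in PDPN+ neratinib and 98.3, 78.7, 97.6 and 16.2 TPM in PDPN+ vehicle libraries. In EpCAM+ cells it ranged over 34.2, 65.0 and 77.4 TPM under neratinib and 29.5, 50.1 and 63.8 TPM under vehicle. The populations overlapped, and the log2 difference was 1.45 (SE 0.28, edgeR adjusted p = 2.79e-04). Stat2, which encodes a subunit of the complex that binds the response element, differed by 1.19 (SE 0.25), and averaged 26.8 ± 14.0 TPM in PDPN+ (SD, n = 8) and 17.7 ± 5.43 TPM in EpCAM+ cells (SD, n = 11). In vehicle libraries alone neither Irf7 nor Stat2 passed. Stat2 also lost the call on log2(TPM + 1), and both passed in the rest of the 19 alternatives. Irf1, which interferon gamma induces through the gamma-activated site, did not pass and had 17.7, 62.4, 47.1 and 43.6 TPM in PDPN+ neratinib and 56.9, 51.0, 47.1 and 0.150 TPM in PDPN+ vehicle libraries. EpCAM+ values of Irf1 were 41.1, 58.2 and 70.2 TPM under neratinib and 45.9, 52.3 and 71.1 TPM under vehicle. V53188 alone was near 0, while the other PDPN+ values lay among or below those of EpCAM+ cells. Irf9, the DNA-binding subunit of the complex, averaged 26.9 ± 11.5 TPM in PDPN+ and 33.5 ± 7.82 TPM in EpCAM+ cells. Irf8, a factor of blood cells, averaged 1.16 TPM in PDPN+ and 0.774 TPM in EpCAM+ cells and did not pass.

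In the ISG15 and ubiquitin class 1 of 4 members passed. Isg15, a ubiquitin-like protein that is conjugated to other proteins, had 48.6, 216, 117 and 186 TPM in PDPN+ neratinib and 141, 99.0, 228 and 93.5 TPM in PDPN+ vehicle libraries. EpCAM+ cells had 19.7, 35.6 and 43.8 TPM under neratinib and 16.8, 21.3 and 32.4 TPM under vehicle. Every PDPN+ library exceeded every EpCAM+ library, with a log2 difference of 2.84 (SE 0.26, edgeR adjusted p = 5.32e-08). Trim25, a ubiquitin ligase that acts on the sensor RIG-I, pointed the other way without passing (-0.71, SE 0.38, edgeR adjusted p = 0.127; 5 of 19 alternatives passed it as lower). It had 4.79, 23.8, 7.10 and 7.41 TPM in PDPN+ neratinib and 14.2, 6.25, 11.3 and 32.6 TPM in PDPN+ vehicle libraries, against 15.5, 40.3 and 44.6 TPM in EpCAM+ neratinib and 14.0, 28.6 and 50.0 TPM in EpCAM+ vehicle libraries. Dtx3l, a ubiquitin ligase that partners with PARP9, also lay below 0 (-0.70, SE 0.39). Usp18, which removes ISG15 from its targets and dampens receptor signalling, averaged 27.8 ± 24.8 TPM in PDPN+ and 17.7 ± 5.69 TPM in EpCAM+ cells. Within PDPN+ cells Usp18 spanned 0.0180 TPM in V53175 to 63.3 TPM in N53180, and its difference of 1.20 did not pass (SE 0.69).

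Of the nucleic acid sensors, Zbp1 and Ddx58 passed. Zbp1, a sensor of Z-form nucleic acids that can trigger cell death, had 68.3, 175, 83.1 and 113 TPM in PDPN+ neratinib and 142, 96.4, 126 and 60.5 TPM in PDPN+ vehicle libraries. EpCAM+ cells had 1.69, 5.45 and 13.9 TPM under neratinib and 2.26, 3.80 and 6.10 TPM under vehicle, so the PDPN+ library with the least Zbp1 lay above the EpCAM+ library with the most. Ddx58, which encodes RIG-I, differed by 2.18 (SE 0.37, edgeR adjusted p = 7.20e-05). Ifih1, which encodes the double-stranded RNA sensor MDA5, had 3.75, 41.9, 14.1 and 29.6 TPM in PDPN+ neratinib and 16.6, 21.6, 15.9 and 1.73 TPM in PDPN+ vehicle libraries. Its EpCAM+ values of 13.4, 16.6 and 20.8 TPM under neratinib and 12.0, 13.9 and 22.2 TPM under vehicle lay inside the PDPN+ range. Dhx58, whose product LGP2 modulates the other sensors, did not pass (1.22, SE 0.81), and its sign turned to -0.90 with the mouse as a block.

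Among the effectors that act on RNA, 7 of 9 passed as higher. Oasl2, of the oligoadenylate synthetase family, had 23.0, 161, 163 and 141 TPM in PDPN+ neratinib and 146, 241, 144 and 193 TPM in PDPN+ vehicle libraries. EpCAM+ cells had 24.1, 35.4 and 51.8 TPM under neratinib and 21.5, 28.8 and 32.8 TPM under vehicle. All PDPN+ libraries but N53178 lay above all EpCAM+ libraries (log2 difference 2.64, SE 0.27, edgeR adjusted p = 2.92e-07). Isg20, an exonuclease, overlapped between the populations, with 85.5, 45.4, 72.5 and 42.4 TPM in PDPN+ neratinib and 89.6, 47.0, 61.0 and 53.6 TPM in PDPN+ vehicle libraries, against 43.6, 51.0 and 62.2 TPM in EpCAM+ neratinib and 48.5, 57.8 and 75.0 TPM in EpCAM+ vehicle libraries. It passed by edgeR (0.74, SE 0.22, adjusted p = 0.00768) and lost the call in 5 of 19 alternatives, among them the mouse block (0.55). The RNA-binding proteins encoded by Ifit1, Ifit2 and Ifit3 differed by 2.66, 2.87 and 2.76 (SE 0.35, 0.95 and 0.42). Ifit1 and Ifit3 passed in all 19 alternatives. Ifit2 did not pass in 4, which were the mouse block (1.47, edgeR adjusted p = 0.589), vehicle libraries alone (0.57), and without the mouse of N53180 (2.62) or of V53185 (2.23). Within the synthetase family Oas1a (1.31, SE 0.27) and Oas2 (1.23, SE 0.41) passed as higher, and Oasl1 (-0.12) and Oas3 (-2.15, SE 1.02, edgeR adjusted p = 0.0910) did not pass. Oas1a lost the call in 1 of 19 alternatives, neratinib libraries alone. Oas2 lost the call in 7 of 19 alternatives, among them the mouse block (0.79, edgeR adjusted p = 0.262), log2(TPM + 1) (0.61) and leaving out the mouse of V53175 (1.11), N53180 (0.71) or V53185 (1.04). Oas3 had at most 3.84 TPM in PDPN+ cells and was near or at 0 in 5 of the 8 libraries, against 0.687 to 8.25 TPM in EpCAM+ cells.

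Of the GTPases, among which the Mx proteins act against viruses and the guanylate-binding and immunity-related families attack the vacuoles of intracellular microbes, 7 of 8 passed. Their median log2 difference of 4.15 was the highest of the roles. Gbp2, a guanylate-binding protein, had 3.33, 91.9, 97.5 and 167 TPM in PDPN+ neratinib and 264, 138, 93.2 and 105 TPM in PDPN+ vehicle libraries. EpCAM+ cells had 3.26, 5.08 and 10.3 TPM under neratinib and 4.08, 6.22 and 8.66 TPM under vehicle, and of the PDPN+ libraries N53178 alone fell in that range. Igtp, an immunity-related GTPase, was below every EpCAM+ library in N53178 and above them in the other PDPN+ libraries, with 3.56, 107, 47.8 and 105 TPM in PDPN+ neratinib and 52.3, 75.5, 60.4 and 83.4 TPM in PDPN+ vehicle libraries. In EpCAM+ cells Igtp had 10.6, 18.2 and 25.6 TPM under neratinib and 8.13, 11.0 and 20.4 TPM under vehicle (log2 difference 2.72, SE 0.39, edgeR adjusted p = 1.39e-05). Iigp1 of the same family averaged 49.0 ± 27.0 TPM in PDPN+ (SD, n = 8) and 0.941 ± 0.926 TPM in EpCAM+ cells (SD, n = 11), and no library of one population reached the range of the other. Gbp3, Gbp7 and Mx2 differed by 4.45, 4.01 and 2.88 and passed in all 19 alternatives. Gbp5 differed by 4.29 but by 2.29 with the mouse block (edgeR adjusted p = 0.370), and did not pass there or in neratinib libraries alone. Mx1, whose gene is defective in most laboratory strains, was the least abundant member in PDPN+ cells, at 0.720 TPM, against 0.371 TPM in EpCAM+ cells, and did not pass (0.54, SE 1.03).

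Both ADP-ribosyltransferases were expressed in each population. Parp14 passed (1.24, SE 0.33, edgeR adjusted p = 0.00458), with 11.8, 5.52, 12.2 and 14.5 TPM in PDPN+ neratinib and 18.0, 7.62, 8.55 and 3.69 TPM in PDPN+ vehicle libraries, against 3.59, 5.15 and 6.71 TPM in EpCAM+ neratinib and 3.63, 4.79 and 7.26 TPM in EpCAM+ vehicle libraries. It lost the call in 3 of 19 alternatives. Parp9, the partner of DTX3L, averaged 19.9 ± 10.3 TPM in PDPN+ (SD, n = 8) and 20.0 ± 3.11 TPM in EpCAM+ cells (SD, n = 11). It did not pass (log2 difference 0.40, SE 0.35, edgeR adjusted p = 0.368). Its PDPN+ values were 23.0, 20.9, 29.5 and 28.1 TPM under neratinib and 8.75, 28.8, 19.6 and 0.663 TPM under vehicle, and its EpCAM+ values 19.2, 21.8 and 24.6 TPM under neratinib and 14.8, 17.9 and 24.6 TPM under vehicle.

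Of the other effectors 6 of 7 passed. Bst2, which encodes the virus tether tetherin, was the most abundant member in both populations, with 120.2, 319.5, 317 and 294 TPM in PDPN+ neratinib and 257, 238, 330.4 and 197 TPM in PDPN+ vehicle libraries. EpCAM+ cells had 64.0, 96.0 and 204 TPM under neratinib and 73.8, 94.5 and 112 TPM under vehicle (log2 difference 1.84, SE 0.21, edgeR adjusted p = 7.84e-07). Ifi35 was the exception, at 20.2, 131, 49.2 and 71.6 TPM in PDPN+ neratinib and 50.3, 83.9, 72.4 and 44.1 TPM in PDPN+ vehicle libraries, against 66.3, 74.1 and 103 TPM in EpCAM+ neratinib and 58.8, 69.8 and 93.3 TPM in EpCAM+ vehicle libraries (0.26, SE 0.24). Xaf1, which encodes a pro-apoptotic partner of the inhibitor XIAP, and Rtp4 differed by 2.39 (SE 0.25) and 2.14 (SE 0.30). Rsad2, which encodes the antiviral enzyme viperin, and its neighbour Cmpk2, a nucleotide kinase, were low: they averaged 5.45 and 2.66 TPM in PDPN+ cells, against 0.203 and 0.161 TPM in EpCAM+ cells. Both passed, but Cmpk2 did not with the mouse block (4.23, edgeR adjusted p = 0.113) or in neratinib libraries alone.

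On CPM, every PDPN+ library lay above every EpCAM+ library for 8 members (Isg15, Gbp3, Gbp7, Ifi44, Xaf1, Rtp4, Zbp1 and Iigp1), and 7.52% of all genes tested had such a separation. On TPM it held for 7 members, but the share of all genes on TPM was not computed, so that count is not a result about the members. The coefficient of variation of the TPM was larger in PDPN+ than in EpCAM+ cells for 34 of 39 members (87.2%), with medians of 0.623 in PDPN+ and 0.384 in EpCAM+ cells. It was larger for 88.1% of 18826 genes tested, with medians of 0.872 and 0.352, so the share of the members was near that of all genes. At least 1 PDPN+ library had 0 reads for 7 members, and at least 1 EpCAM+ library for 3. The same share over all genes was not computed, so these counts are not a result about the members. A median of 14126 genes in PDPN+ and 16989 genes in EpCAM+ libraries had at least 10 reads. Macrophage and monocyte markers summed to 141 to 1067 CPM in PDPN+ libraries and to 249 to 527 CPM in EpCAM+ libraries, lymphocyte markers to 0.189 to 3.36 CPM in PDPN+ and 0.195 to 0.922 CPM in EpCAM+ libraries, and endothelial markers to 29.9 to 161 CPM in PDPN+ and 3.21 to 24.0 CPM in EpCAM+ libraries. Dendritic cell markers summed to 2.81 to 33.9 CPM in PDPN+ and 1.12 to 3.64 CPM in EpCAM+ libraries. Mesothelial markers summed to 728 to 2640 CPM in PDPN+ and 724 to 1253 CPM in EpCAM+ libraries. Neutrophil markers summed to 0.378 to 45.0 CPM in PDPN+ and 1.60 to 31.3 CPM in EpCAM+ libraries. Of 11 macrophage and monocyte markers tested, 4 (Csf1r, Lyz2, C1qa and C1qb) passed as higher in PDPN+ cells and 1 (Mrc1) as lower. Of 5 dendritic markers tested 2 (Zbtb46 and Siglech) passed as higher and 1 (Flt3) as lower, of 3 lymphocyte markers 1 (Cd3d) as higher, and of 9 endothelial markers 4 as higher. Of 4 mesothelial markers 3 passed as higher and 1 did not pass, with a median log2 difference of 6.85 and a range of -0.62 to 9.02. Of 6 neutrophil markers 1 passed as lower and none as higher. The pan-leukocyte gene Ptprc had 0 reads in 4 of the 8 PDPN+ libraries but 14.2 CPM in N53184 of PDPN+ cells, the highest of all libraries, against 3.27 to 8.62 CPM in EpCAM+ libraries. Of the other markers Fcgr1, Cd8a, Nkg7, Gzmb and Ncr1 had 0 reads in all PDPN+ libraries. They were also low in EpCAM+ libraries, with at most 17, 4, 4, 3 and 1 reads in a library, in that order. Cd3d had at most 19 reads in any library. The part of these markers in the difference was not tested.

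The promoter letters of 5 members are shown because they cover the range of the population difference, from strongly higher in PDPN+ cells (Isg15, Ifit1, Gbp2) to no passing difference (Irf1, Trim25). They are RefSeq sequences (build GRCm38.p6) from 250 bases before to 50 bases after the annotated start, 5′ to 3′ on the gene's strand. Capitals mark matches to the interferon-stimulated response element GAAANNGAAA, searched on both strands, and to the gamma-activated site TTCNNNGAA, which reads the same on both strands; overlapping matches to GAAANNGAAA run together. The windows are chr4:156200769-156201068 for Isg15 (minus strand), chr19:34640639-34640938 for Ifit1, chr3:142620413-142620712 for Gbp2, chr11:53769764-53770063 for Irf1 and chr11:88999153-88999452 for Trim25 (all plus strand).
Isg15: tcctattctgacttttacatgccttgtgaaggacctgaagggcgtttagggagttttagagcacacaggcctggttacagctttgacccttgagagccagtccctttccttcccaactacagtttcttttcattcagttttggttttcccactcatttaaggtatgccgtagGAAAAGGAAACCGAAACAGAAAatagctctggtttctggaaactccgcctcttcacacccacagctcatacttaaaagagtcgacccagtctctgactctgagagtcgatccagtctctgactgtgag
Ifit1: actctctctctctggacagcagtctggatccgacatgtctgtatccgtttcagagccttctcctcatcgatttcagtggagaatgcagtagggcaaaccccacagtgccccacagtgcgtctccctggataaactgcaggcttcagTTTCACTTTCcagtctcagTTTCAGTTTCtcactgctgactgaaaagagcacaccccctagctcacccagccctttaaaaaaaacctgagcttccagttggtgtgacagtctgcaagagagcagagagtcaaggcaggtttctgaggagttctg
Gbp2: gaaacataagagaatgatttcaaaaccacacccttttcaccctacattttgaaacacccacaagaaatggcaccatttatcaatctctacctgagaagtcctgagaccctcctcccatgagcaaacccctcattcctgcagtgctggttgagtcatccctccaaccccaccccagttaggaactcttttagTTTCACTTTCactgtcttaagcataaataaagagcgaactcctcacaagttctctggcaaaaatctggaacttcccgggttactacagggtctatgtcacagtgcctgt
Irf1: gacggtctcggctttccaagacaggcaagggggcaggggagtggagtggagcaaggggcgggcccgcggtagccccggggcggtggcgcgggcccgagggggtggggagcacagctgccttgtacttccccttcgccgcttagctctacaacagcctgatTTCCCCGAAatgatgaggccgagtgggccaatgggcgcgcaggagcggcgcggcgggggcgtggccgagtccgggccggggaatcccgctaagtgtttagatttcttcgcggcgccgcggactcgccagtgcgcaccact
Trim25: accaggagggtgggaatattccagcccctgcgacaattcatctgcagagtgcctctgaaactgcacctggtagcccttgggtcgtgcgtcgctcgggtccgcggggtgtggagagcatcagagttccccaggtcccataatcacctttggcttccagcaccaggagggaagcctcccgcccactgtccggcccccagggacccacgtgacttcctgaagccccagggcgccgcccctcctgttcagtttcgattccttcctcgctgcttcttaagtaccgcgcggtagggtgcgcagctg
Isg15 held 3 overlapping response elements that begin 78, 72 and 66 bases before the start, Ifit1 held 2 on the reverse strand and Gbp2 held 1. The Irf1 window held 1 gamma-activated site, 90 bases before the start, and no response element, while the window of the other Irf1 start in the table held neither, and neither motif was in the Trim25 window. Promoters of 29 of the 39 members were in the table. The response element occurred in 15 of these 29 (51.7%), against 3.99% of the 27025 genes with a promoter there, and the gamma-activated site in 10 (34.5%), against 9.55%. Counted by gene, 13 of 20 members higher in PDPN+ cells and 2 of 9 members that did not pass held the response element in at least 1 window. Cmpk2, Ifi44, Oasl2, Xaf1, Irf7, Isg20 and Ifit2 were higher without it, and Ifih1 and Oas3 held it without passing. The 5 windows shown include none of these cases. A match is a description of the letters in the window and says nothing of binding.

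The rest of the pathway was read from lists of its other genes. Of 21 interferon ligand genes, 10 had 0 reads in all 19 libraries and 15 had at most 3 reads in every library. The most abundant was Ifne, an epithelial type I interferon, with 0 TPM in all PDPN+ libraries and 1.33 to 10.6 TPM in EpCAM+ libraries, followed by Ifnz, with a mean of 0.0572 TPM in PDPN+ and 0.581 TPM in EpCAM+ cells. Both passed as lower in PDPN+ cells, and no other ligand was tested. The receptor and kinase genes differed in both directions. Ifnar2 (log2 difference 2.94, SE 0.32) and Ifnar1 (0.46, SE 0.17), which encode the type I interferon receptor, and Jak2 (0.63, SE 0.20) passed as higher in PDPN+ cells. Ifnar1 averaged 32.5 TPM in PDPN+ and 34.0 TPM in EpCAM+ cells, so its direction depends on the scaling. Jak2 averaged 11.6 TPM in PDPN+ and 9.70 TPM in EpCAM+ cells. The alternative settings were read for the members only. The type III receptor gene Ifnlr1 (-3.00, SE 0.89), the kinase gene Tyk2 (-2.29, SE 0.69) and Ifngr1 passed as lower, and Ifngr2, Il10rb and Jak1 did not pass. Ifngr1, the ligand-binding chain of the interferon gamma receptor, had 58.6 ± 22.0 TPM in PDPN+ (SD, n = 8) and 409 ± 76.4 TPM in EpCAM+ cells (SD, n = 11; log2 difference -2.31, SE 0.22, edgeR adjusted p = 1.23e-07).

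Of 42 other interferon-stimulated genes, 27 passed as higher in PDPN+ cells and 4 as lower, of 41 tested. The highest of these were Ifitm2 and Ifitm3, which encode membrane proteins that block virus entry. Ifitm3 averaged 2758 ± 846 TPM in PDPN+ and 290.2 ± 311 TPM in EpCAM+ cells (log2 difference 3.78, SE 0.47), and Ifitm2 averaged 1759 TPM in PDPN+ and 1306 TPM in EpCAM+ cells (0.92, SE 0.13). Of 3 interferon-induced chemokines tested, 2 passed as higher, and Cxcl10, which attracts T cells, had a difference of 4.90 (SE 0.45). Of the genes that induce interferon from nucleic acids 5 of 9 tested passed as higher and 2 as lower, and of 6 that restrain the pathway 3 passed as higher.

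Neratinib was first set against vehicle in PDPN+ cells, and no member passed (edgeR, 38 members and 14437 genes tested, 0% of all genes called), and no member had an unadjusted p under 0.05, against 2.29% of all genes; DESeq2 called no member either. Oas3 was removed by the filter on low counts. The median log2 fold change was 0.10, with 22 of 38 positive, against 0.06 for all genes, with 7619 of 14437 positive. The smallest p-values belonged to Irf7 (1.12, SE 0.51, adjusted p = 1.00), Stat2 (0.81, SE 0.39) and Mx1 (-4.20, SE 2.19). Stat2 had 43.7, 46.8, 20.5 and 28.4 TPM under neratinib and 10.2, 16.3, 35.4 and 13.1 TPM under vehicle, and the groups overlapped through V53185. Mx1 had 0, 0, 1.45 and 0.106 TPM under neratinib and 0, 0.327, 0.719 and 3.16 TPM under vehicle. Ifit2 carried the largest positive fold change (3.28, SE 1.99), from 0.0432, 15.1, 9.88 and 11.4 TPM under neratinib and 0, 2.22, 3.28 and 0 TPM under vehicle; it was singled out after its values were seen.

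Single mice set the balance of the list in PDPN+ cells. The mean log2 CPM of the members was 3.62, 5.64, 4.94 and 5.54 under neratinib and 4.57, 4.86, 5.23 and 4.66 under vehicle, so neratinib libraries held both the lowest value, N53178, and the highest, N53180. Without N53178 the median fold change was 0.36 with 29 positive, and without N53180 it was -0.18 with 13 positive. Without V53175 and V53188 it was 0.31 with 29 positive. Mitochondrial reads made up 19.4% of the reads in N53178, the highest share of the 8, and 13.5% in N53180. Macrophage and monocyte markers summed to 170 CPM in N53178 and 141 CPM in N53180, the lowest of the 8. The part of these in the result was not tested.

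In EpCAM+ cells no member passed either (39 members and 17200 genes tested, 0% of all genes called by edgeR, and no member by DESeq2). At an unadjusted p under 0.05 stood 4 members, against 3.05% of all genes. They were Dhx58 (1.01, SE 0.31), Usp18 (0.52, SE 0.20), Ifit2 (-1.46, SE 0.58) and Isg15 (0.52, SE 0.23), each with an edgeR adjusted p of 0.999. Dhx58 had 3.64, 4.69, 7.56, 5.14 and 5.60 TPM under neratinib, against 1.63, 2.65 and 4.49 TPM (lowest, median and highest) under vehicle, so that N53178 alone lay within the vehicle range. Usp18 had 20.1, 17.9, 31.4, 15.1 and 23.7 TPM under neratinib, against 11.3, 14.5 and 17.9 TPM under vehicle. Ifit2 had 0.149, 0.217, 0.552, 0.275 and 0.499 TPM under neratinib, against 0.187, 0.588 and 1.79 TPM under vehicle.

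Most members had a positive value in EpCAM+ cells, though none passed: the median log2 fold change was 0.23, with 34 of 39 positive, against -0.0009 for all genes. Among all genes, 8574 of 17200 were positive. The members covaried between EpCAM+ libraries, so their signs are not independent. The mean log2 CPM of the members was 3.38, 2.92, 3.84, 3.20 and 3.59 under neratinib, and 2.99 to 3.62 under vehicle, so the groups overlapped. N53184 was the highest library, and without it the median was 0.07 with 27 positive. Without the 3 libraries that stood apart it was 0.22 with 32 positive.

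The difference of the neratinib effect between the populations passed for no member (0 of 39 by edgeR; 0.0662% of 19626 genes passed; no member by DESeq2). At an unadjusted p under 0.05 stood 2 members, Ifit2 (difference 4.69, SE 1.96) and Mx1 (-4.99, SE 2.13), against 11.2% of all genes. A p that misses the threshold does not show that the effects are alike, and the standard errors of single members in PDPN+ cells had a median of 0.70 on the log2 scale.

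**Figure D3:**
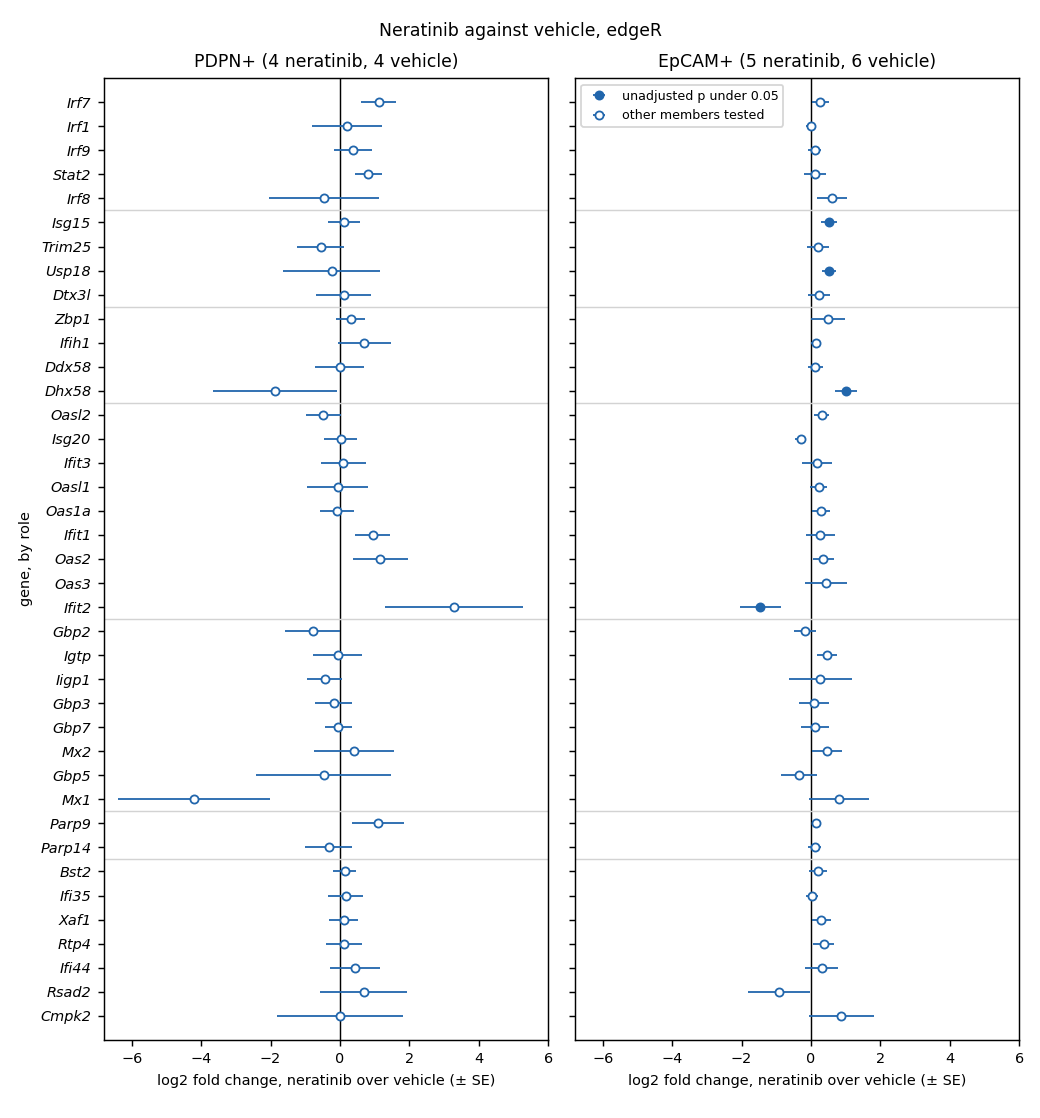
Log2 fold change of neratinib over vehicle with its standard error (horizontal axis) for each gene (rows, by role) in PDPN+ (left) and EpCAM+ cells (right), from edgeR. Filled points mark the 4 EpCAM+ members with an unadjusted p under 0.05; the intervals in PDPN+ cells are wider, and no member passed after adjustment.

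Covariation between mice was described by the Pearson correlation of each pair of members, after the treatment mean was taken from each library's log2 CPM. Within the libraries that did not stand apart, the median over pairs was 0.45 over 6 PDPN+ libraries and 0.47 over 8 EpCAM+ libraries, against -0.004 and -0.0003 over pairs of all genes. With the libraries that stood apart included, it was 0.20 over pairs of 38 members in PDPN+ cells, against 0.01 over pairs of all genes, and 0.25 over pairs of 39 members in EpCAM+ cells, against -0.001. In PDPN+ cells both values rested on N53178, in which Oas1a, Gbp2, Igtp and Oasl2 were low together: without it the median was 0.12 over the other 5 of the 6 libraries and 0.03 over the other 7 of the 8. These are descriptions with no test, since pairs share libraries and genes.

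**Figure D4:**
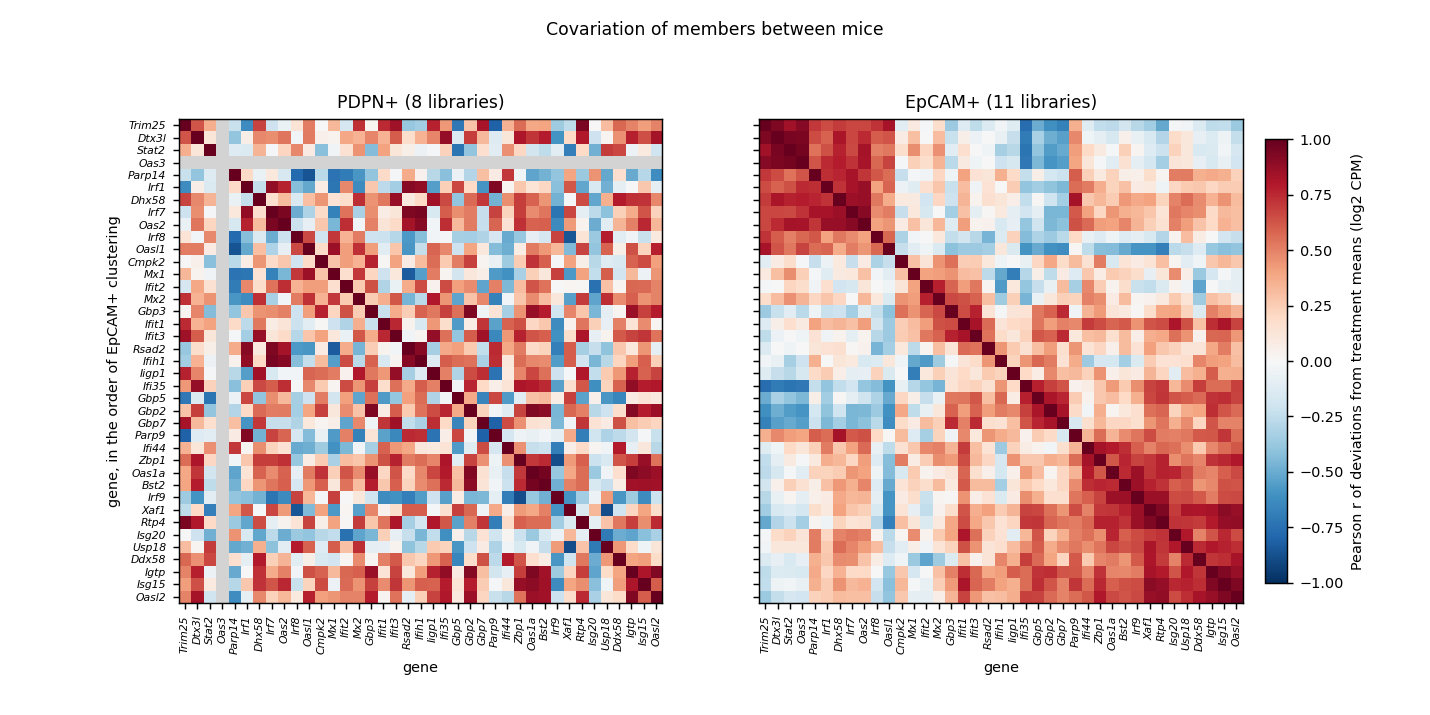
Pearson correlation between members (colour) over 8 PDPN+ (left) and 11 EpCAM+ libraries (right), with genes ordered by clustering in EpCAM+ cells; grey marks Oas3, which was not tested in PDPN+ cells. EpCAM+ cells show a block around Stat2, Trim25, Dtx3l and Oas3 and another around Isg15, Oasl2 and Igtp, with weak or negative values between them.

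Among EpCAM+ libraries the members fell into more than 1 pattern. The groups named here were chosen after their values were seen. Stat2, Trim25, Dtx3l, Oas3 and Oasl1 were all lowest in N53178, V53175 and V53176, the libraries that stood apart on all genes. Oas3 was at 0.687 to 1.16 TPM in these 3 and at 3.81 to 8.25 TPM in the other 8. Trim25 was at 14.0 to 17.2 TPM in these 3 and at 27.2 to 50.0 TPM in the other 8, and Stat2 at 9.20 to 10.8 TPM in these 3 and at 15.4 to 24.1 TPM in the other 8. By contrast Isg15 was at 20.6 to 39.3 TPM in these 3 and at 16.8 to 43.8 TPM in the other 8, with the ranges overlapping. The first principal component, on which the 3 libraries stood apart, held 38.0% of the variance of all genes tested in EpCAM+ cells. The share of all genes that were lowest in these 3 libraries was not computed. The separation is therefore not a result about the members.

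Within the other 8 libraries the 10 pairs among Isg15, Oasl2, Igtp, Xaf1 and Rtp4 had a median correlation of 0.88 (0.77 to 0.97). This group was chosen on values that include these 8 libraries, so the high correlation follows from the choice and is no support for the group. The 10 pairs of the Stat2 group had 0.37 (-0.34 to 0.76) there, and the 25 pairs between the groups 0.45. Over all 11 libraries, where the libraries fall into clusters, the 25 pairs between the groups had a median of -0.24. The levels of the Isg15 group were highest in N53184, with Isg15 at 43.8 TPM, and Bst2, which is not of that group, was also highest there, at 204 TPM.

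**Figure D5:**
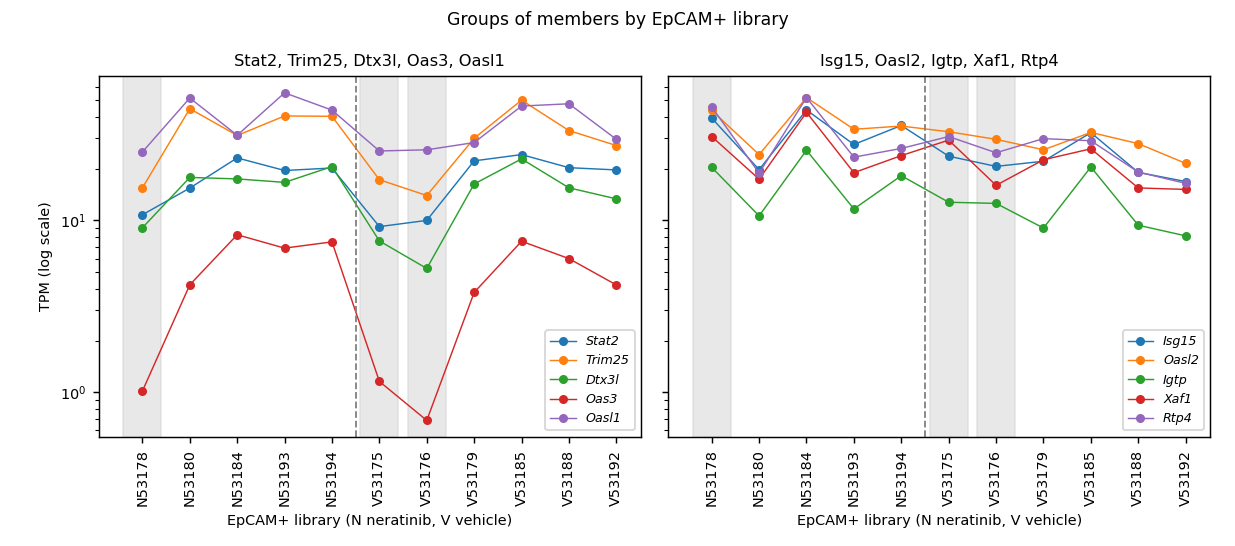
TPM on a log axis of 5 members that were low in the 3 libraries that stood apart (left, shaded columns) and of 5 that were not (right), by EpCAM+ library, neratinib left of the dashed line. Oas3 falls to about 1 TPM in the shaded libraries, while Isg15 stays within the range of the others.

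The level of a member in PDPN+ cells was set against its level in EpCAM+ cells of the same mouse, as log2 CPM. The pairing rests on the label numbers alone. Same-numbered libraries correlated at -0.11 to 0.03 in their deviations from group means. A correlation near 0 therefore cannot be read as a lack of sharing within a mouse. Treatment means were left in, and mice of both treatments were permuted together. The p-values therefore do not separate differences between mice from those between treatments. Over the 8 mice with both populations the median Pearson correlation of the 38 members was -0.03, with 17 positive, against -0.01 over 13015 genes (49.2% positive). With the treatment means taken out the median was -0.003, with 19 positive, against -0.013 over all genes. At an unadjusted exact two-sided permutation p under 0.05 stood 2 members, against 6.23% of all genes, and neither passed after Benjamini-Hochberg adjustment over 13015 genes. Ifi44 had r = -0.91 (exact permutation p = 8.93e-04, adjusted p = 0.713) and rho = -0.83 (exact permutation p = 0.0154, adjusted p = 0.844), and r = -0.71 without the 2 mice farthest from the median. Ifi35 had r = -0.70 (exact permutation p = 0.0372, adjusted p = 0.788) and rho = -0.45 (exact permutation p = 0.267), and r = -0.33 without the 2 farthest mice.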

How the data were processed

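RNA-seq of 19 libraries was analysed from transcript tables made with Salmon 1.9.0 against GRCm39, per the submitters' processing notes. Neither the transcriptome release nor Salmon's options are given in these sources. Estimated counts (NumReads, not normalised) and TPM per transcript were deposited by the authors, per the file headers. Of 147828 transcripts, 137063 matched GENCODE M21 and were summed to 51707 genes; counts were rounded to whole reads. Unmatched were 10765, with 4.07 to 8.96% of all reads in PDPN+ libraries and 1.77 to 2.26% in EpCAM+ libraries. No strand setting is given, so overlapping and antisense genes, and near-identical copies such as the Gbp, Oas and Ifit families, may share reads.

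The gene counts went into edgeR 4.0.16 under R 4.3.3 (TMM, filterByExpr, robust quasi-likelihood F test, Benjamini-Hochberg over all genes, threshold 0.05); log2 CPM used a prior count of 2. The populations and the interaction were fitted over 19 libraries with 4 group means, and neratinib against vehicle within each population. The code was tested on simulated data. Alternatives were DESeq2 1.42.0, its size factors, no filter, limma 3.58.1 on log2(TPM + 1) with a mean TPM of at least 1, the mouse as a block, all libraries in 1 fit, a code column of the deposited names as a covariate (in PDPN+ cells added after the data were seen), and leaving out libraries. Values per library are printed for the 2 members of each role with the highest mean TPM and the 3 with the smallest p in each neratinib comparison; others named were chosen after their values were seen. The members, roles and lists were chosen with earlier results of these data known. P-values take each library of a group as a separate mouse. The mouse block used only the 8 mice with both populations. Same-numbered libraries correlated at -0.11 to 0.03 in their deviations from group means. One gene of the pathway is not reported here.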

Additional observations from a re-analysis of the deposited data

Results flagged for a closer look

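A library far from the others of its group, relative to the whole range of the group, was seen in 16 of 156 groups (39 members in 4 groups, on log2 CPM). For independent, normally distributed values chance gives about 1 in 20. The 156 groups share libraries and are not independent. The share over all genes was not computed, so the count is not a result about the members. In PDPN+ neratinib libraries N53178 was the low one for Ifit2 (-2.15), Oas1a (4.06) and Gbp2 (3.17). In PDPN+ vehicle libraries V53188 was low for Irf1 (-1.39), Gbp5 (-3.71) and Ifih1 (2.35), and V53175 was low for Irf8 (-4.55) and Irf9 (4.12) and high for Parp14 (7.15). V53179 was low for Ifit1 (4.60) and high for Ifi35 (6.45), and V53185 was low for Dtx3l (4.21). In EpCAM+ neratinib libraries N53184 was high for Oas1a (5.66) and Iigp1 (2.18). In EpCAM+ vehicle libraries V53192 was low for Gbp5 (-2.34) and V53176 was high for Gbp7 (3.81). V53175 and V53188 of the PDPN+ group and V53176 of the EpCAM+ group also stood apart on all genes.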

How the results depend on the processing

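The count of 26 members that differ between the populations ranged from 21 to 28 over 19 alternatives; with the mouse as a replicate block it was 22, and leaving out 1 mouse gave 25 to 28. No member passed in a neratinib comparison or the interaction under any alternative run, the replicate block of the interaction (0) included. Median covariation in EpCAM+ cells moved to 0.47 without the libraries that stand apart, and to 0.16 to 0.30 with 1 library left out; in PDPN+ cells it moved to 0.45 without the libraries that stand apart, and to 0.027 to 0.38 with 1 left out. Without the libraries that stand apart and N53178, a setting added after the data were seen, it was 0.12. The correlation between populations of the same mouse ranged from -0.21 to 0.042 with 1 mouse left out. Among members near 0, the population difference changed sign for Irf1 with no filter (-0.030), on log2(TPM + 1) (-0.97), with the block (-0.31) and without the mouse of V53175 (-0.19), V53179 (-0.070), N53180 (-0.11) or N53184 (-0.011), with a range of -0.19 to 0.22 over mice left out. Irf9 changed sign on log2(TPM + 1) (-0.43), with the block (-0.13) and without the mouse of N53178 (-0.050), V53188 (-0.047) or N53194 (-0.027), and Oasl1 in vehicle libraries alone (0.089). It did so for Dhx58 with the block (-0.90) and in neratinib libraries alone (-0.22), and for Mx1 with the block (-0.57), without the 5 libraries that stand apart (-0.71), without V53188 (-0.80; range over mice left out -0.80 to 1.22) and in neratinib libraries alone (-1.94). On log2(TPM + 1) it also did so for Ifi35 (-0.35), Ifih1 (-0.22), Parp9 (-0.38) and Usp18 (-0.30), for Ifi35 without N53180 (-0.075; range -0.075 to 0.41) and for Parp9 in vehicle libraries alone (-0.012). The cause was not tested. With 4 mice a group, low counts such as Mx1 and Ifit2 limit what PDPN+ cells can show.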
